A study of Homo sapiens with 24 samples.

Results

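The effect of wild-type MRTF-A on the transcriptome was compared between flat and gel culture in MDA-MB-231, an established human line of triple-negative breast cancer with mesenchymal features. The comparison used 12 of the 24 RNA libraries of the series, chosen by their titles: 3 of the control line in 2D, 3 of the line overexpressing wild-type MRTF-A (here WT) in 2D, and 3 of each line in 3D. Both lines carried the label of 1 ug/ml doxycycline, given for 72 h, the control line included. In 2D the cells grew in plates with 10% serum, and in 3D they sat upon a bed of matrigel, an extract of basement membrane, with 2% matrigel in the medium. Each construct is represented by 1 engineered line. The labels do not say whether that line is a clone, what the control line carries, or whether replicates were separate cultures, so the p-values measure the spread between these libraries, which may be technical. The tested quantity, called the interaction here, is the difference WT minus control in 3D less the same difference in 2D, on the log2 scale. It compares ratios, and it is positive either where WT is further above control in 3D or where WT is less far below it. Because the same number follows from a shift of either line, the 4 group levels are given for the genes described. Levels are means ± SD of 3 libraries in CPM, and where a pair of means stands for a culture, the control line comes first and WT second. Log2 differences carry their SE.

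MRTF-A is a coactivator of the transcription factor SRF. It binds unpolymerised actin, which keeps it out of the nucleus and inactive, and it is released when actin is assembled into filaments, as happens in spread and contractile cells on stiff plastic. With SRF it drives genes of the contractile cytoskeleton and of cell adhesion, many of which carry a CArG box, the DNA element that SRF binds. Soft gel culture is known to lower actin tension and the activity of the related mechanically controlled coactivator YAP.

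Promoter stretches of 6 genes, 1 from each of 6 lists whose regulators have a known DNA motif, are shown, each the 250 bases before the RefSeq start (GRCh38.p14), 5′ to 3′ on the gene's strand, with the searched motif in capitals. They cover the role groups described below: a calponin of the actin cytoskeleton (CNN2, chr19:1026358-1026607, plus strand), a tRNA synthetase of the ATF4 stress programme (AARS1, chr16:70289507-70289756, minus strand), the main chaperone of the endoplasmic reticulum (HSPA5, chr9:125241344-125241593, minus strand), an interferon-induced antiviral protein (IFIT3, chr10:89327747-89327996, plus strand), a motor of cell division (KIF23, chr15:69414099-69414348, plus strand) and the master regulator of cholesterol synthesis (SREBF2, chr22:41832855-41833104, plus strand).
CNN2: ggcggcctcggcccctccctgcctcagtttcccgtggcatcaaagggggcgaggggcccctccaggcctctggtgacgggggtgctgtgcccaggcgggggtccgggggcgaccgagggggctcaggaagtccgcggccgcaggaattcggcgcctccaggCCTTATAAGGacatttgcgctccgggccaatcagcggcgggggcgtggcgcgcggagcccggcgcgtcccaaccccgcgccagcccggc
AARS1: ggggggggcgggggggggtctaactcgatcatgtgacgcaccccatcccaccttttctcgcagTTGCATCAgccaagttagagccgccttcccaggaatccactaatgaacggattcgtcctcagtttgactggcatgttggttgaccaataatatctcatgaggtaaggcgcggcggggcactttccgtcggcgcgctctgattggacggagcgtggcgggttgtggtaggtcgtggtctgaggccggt
HSPA5: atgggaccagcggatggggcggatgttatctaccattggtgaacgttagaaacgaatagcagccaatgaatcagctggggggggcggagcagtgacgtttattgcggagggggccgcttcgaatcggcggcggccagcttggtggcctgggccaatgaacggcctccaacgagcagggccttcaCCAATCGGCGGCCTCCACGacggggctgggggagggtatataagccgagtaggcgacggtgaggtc
IFIT3: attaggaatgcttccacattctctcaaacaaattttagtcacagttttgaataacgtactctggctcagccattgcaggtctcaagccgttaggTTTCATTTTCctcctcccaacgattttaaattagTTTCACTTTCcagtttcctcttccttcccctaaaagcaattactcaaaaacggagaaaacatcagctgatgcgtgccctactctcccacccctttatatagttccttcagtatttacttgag
KIF23: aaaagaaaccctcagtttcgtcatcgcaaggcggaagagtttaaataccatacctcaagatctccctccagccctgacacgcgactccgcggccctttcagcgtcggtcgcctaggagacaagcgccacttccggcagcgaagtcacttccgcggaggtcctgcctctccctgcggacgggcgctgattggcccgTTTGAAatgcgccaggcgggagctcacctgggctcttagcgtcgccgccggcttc
SREBF2: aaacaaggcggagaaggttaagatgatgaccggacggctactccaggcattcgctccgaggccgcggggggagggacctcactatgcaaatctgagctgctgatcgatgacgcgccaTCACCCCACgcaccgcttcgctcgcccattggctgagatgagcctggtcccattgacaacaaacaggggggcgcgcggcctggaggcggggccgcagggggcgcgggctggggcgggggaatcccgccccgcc
Each gene shown was picked for a motif match and, among such members with an interaction at an adjusted p under 0.05, for the lowest p. Its motif therefore follows from the choice. The capitals mark the CArG box in CNN2, beginning 89 bases before the start. In AARS1 they mark the ATF4 element (TGATGCAA), which begins 187 bases before the start and reads on the opposite strand. HSPA5 holds the ER stress element (CCAAT, 9 bases of any kind, CCACG) at 66 bases. IFIT3 holds the interferon-stimulated response element (ISRE; TTTC, 2 bases of any kind, TTTC) at 156 and 122 bases. KIF23 holds the cell cycle homology region (CHR, TTTGAA) at 55 bases, and SREBF2 the sterol element (TCACNCCAC) at 133.

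Both strands of RefSeq windows from 250 bases before to 50 after each start were searched for these letters. The CArG box was found in 10 of 42 promoters (23.8%) of the SRF list, against 351 (1.29%) of all 27305 promoters. The ATF4 element was found in 4 of 32 promoters (12.5%) of the ATF4 list against 252 (0.923%), and the ER stress element in 7 of 24 promoters (29.2%) of the chaperone list against 22 (0.0806%). The ISRE was found in 22 of 31 promoters (71%) of the interferon list against 996 (3.65%), the CHR in 19 of 25 promoters (76%) of the mitosis list against 4212 (15.4%), and the sterol element in 1 of 24 promoters (4.17%) of the cholesterol list against 313 (1.15%). These are matches of letters in a window, not measured binding. In members with an interaction at an adjusted p under 0.05, the CArG box was in 6 of 27 promoters and the ATF4 element in 4 of 27. For such members the ER stress element was in 4 of 16 and the ISRE in 6 of 12. The CHR was in 17 of 22 and the sterol element in 1 of 15. Whether a motif goes with the interaction was not tested. The lists' genes were chosen with results of these data known, and only the members with a RefSeq promoter are counted.

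The libraries followed their titles. MRTFA (chromosome 22, 40410281 to 40636702) stood at 34.5, 37.7 and 38.1 CPM in 2D control, 4451, 4764 and 4808 in 2D WT, 29, 28.3 and 28.8 in 3D control and at 4405, 4354 and 4516 in 3D WT. All 6 WT libraries lay far above all 6 control libraries, whereas the genotype field of the labels disagrees with the titles for 16 of the 24 libraries of the series. The construct's transcripts and the cell's own are counted together. Total counts ran from 15536654 to 21931024 per library, and each library correlated across genes with the mean of its own group at 0.986 to 0.989 and with the nearest other group at 0.957 to 0.963. Principal component 1 held 43.1% of the variance and placed 2D WT highest and 3D control lowest, and component 2, with 26.7%, placed 2D control highest and 3D WT lowest. The 8 markers expected in MDA-MB-231 summed to 6120 to 9354 CPM (TMM-scaled counts relative to library size) in each library. Of 7 markers expected to be low or absent, the hormone receptors ESR1 and PGR were at 0 throughout. FOXA1 reached at most 0.14 CPM and CDH1 at most 2.48. The other members were present in every library: ERBB2 at 92.8 to 110 CPM, EPCAM at 15.1 to 28.4 and GATA3 at 11.1 to 28.9.

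Of 14112 genes tested with edgeR's quasi-likelihood test, 3463 (24.5%) had an interaction at an adjusted p under 0.05: 1748 (12.4%) were more positive in 3D and 1715 (12.2%) more negative. At least 2-fold interactions numbered 346 (2.45%), and for 3070 (21.8%) called genes the range of differences between single WT and control libraries in 3D did not overlap that in 2D. WT differed from control for 7716 genes (54.7%; 27.0% higher and 27.7% lower) in 2D, by at least 2-fold for 8.74% of those tested. In 3D it differed for 7174 (50.8%; 24.8% and 26.1%), at least 2-fold for 8.25%. The control line differed between cultures for 8728 genes (61.8%; 30.2% higher in 3D and 31.6% lower), at least 2-fold for 9.97%. The WT line differed for 9065 (64.2%; 30.9% and 33.4%), at least 2-fold for 10.4%. In bulk libraries, fewer cells of a kind and less RNA per cell cannot be told apart. In a fit of all 24 libraries the interaction count was 1376, and 3636 when 3D dSRF replicate 1, a library of another line that stands apart from its group, was left out of that fit. For the lists below, counts with all 24 are given as more positive and then more negative. The shares of all genes above are the reference for the list counts below. With 3D dSRF replicate 1 left out, 27 mitosis, 12 replication, 12 histone and 13 YAP and TEAD genes were more positive. In the same fit 31 ATF4 targets were more negative, and 2 hypoxia and glycolysis genes were more positive. Counts are of listed members that passed the filter on low counts: 12 of 18 histones, 13 of 20 BMP genes, 23 of 33 keratins and epithelial genes, 39 of 47 matrix genes, 14 of 20 proteases, 13 of 16 integrins, 22 of 25 NF-kB genes, 7 of 10 transition genes and 4 of 6 metallothioneins, with at most 1 member missing from each other list of a pathway or process. Marker lists of cell types, which held more genes too low to test, are given by their levels.

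The genes with an interaction were split by the line in which a culture difference was called. Where both lines shifted in the same direction, neither can be named as the source. Among the 3463 genes, 733 (21.2%) had a culture difference called in the control line only, 849 (24.5%) in the WT line only, 1502 (43.4%) in both in the same direction, 355 (10.3%) in both in opposite directions and 24 in neither. The shift was larger in the control line for 1682 genes and larger in the WT line for 1781. Read the other way, 1085 genes (31.3%) had a WT effect called in 2D only, 717 (20.7%) in 3D only, 1241 (35.8%) in both with the same sign, and 374 (10.8%) in both with opposite signs. Of the 1241 with the same sign, the effect was larger in 2D for 686 and in 3D for 555.

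**Figure D1:**
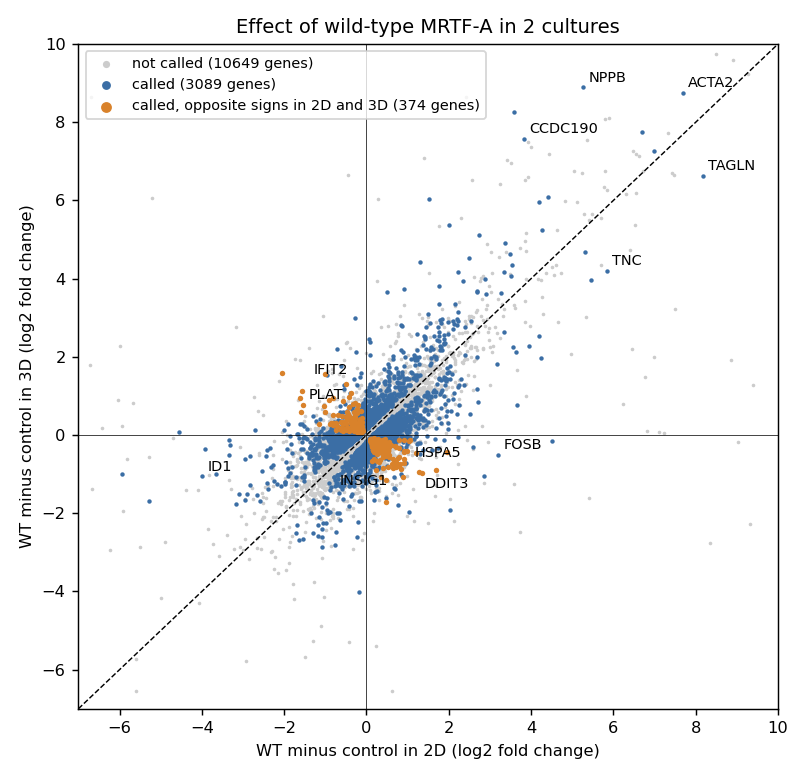
Log2 fold change of WT over control in 2D (horizontal) and in 3D (vertical) for each of 14112 tested genes, with the line of equal effect dashed and 22 genes outside the range of -7 to 10 not drawn. Blue and orange points are the 3463 genes with a called interaction, orange the 374 whose effects were called with opposite signs. Points above the dashed line had the more positive WT effect in 3D.

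Most cytoskeletal targets of MRTF and SRF were raised by WT in both cultures, and for 24 of them the ratio of WT to control was larger in 3D. Over the list the median fall on gel was larger in the control line than in the WT line. Of 45 tested members, 24 had a more positive interaction and 4 a more negative one (62.2% called against 24.5% of all genes; median 0.26). Of these members 13 and 1 were called in the fit of all 24 libraries. WT raised 41 of them in 2D (median 1.74) and 43 in 3D (1.99), against 27.0% and 24.8% of all genes. From 2D to 3D the control line lost 34 of 45 (median -0.59) and the WT line 32 (median -0.28).

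The adhesion and stress fibre proteins were the clearest group, with 12 of 14 more positive and 2 more negative (median 0.51). Zyxin (ZYX, chromosome 7, 143381080 to 143391111), a sensor of tension at focal adhesions, stood at 147, 150.0 and 146 CPM in 2D control, 578, 604 and 581 in 2D WT, 71.8, 74.8 and 79.2 in 3D control and at 556, 541 and 581 in 3D WT. The WT groups overlapped each other and lay above every control library, and the 3D control libraries lay below those in 2D. Its interaction was 0.90 ± 0.06, adjusted p = 4.25e-09, made of a fall of the control line by 0.97 and a WT line at -0.07 ± 0.04 (adjusted p = 0.112). Vinculin (VCL), which ties adhesions to actin, was at 629.6 ± 10.6 CPM in 2D control, 1834 ± 4.75 in 2D WT, 365 ± 5.1 in 3D control and 1646 ± 58.2 in 3D WT (interaction 0.63 ± 0.05, adjusted p = 5.6e-08). PDLIM5, a scaffold of the stress fibre, was at 164 ± 13.1 CPM in 2D control, 573 ± 13.7 in 2D WT, 72.4 ± 1.95 in 3D control and 525 ± 10.3 in 3D WT. The interaction of PDLIM5 was 1.06 ± 0.07, adjusted p = 3.57e-09. In both of these the WT line also fell on gel, by 0.16 for VCL and by 0.13 for PDLIM5, less than the control line. The 2 members more negative in 3D were FLNA (-0.26), the actin crosslinker filamin A, and CSRP1 (-0.36), a LIM protein. Members named as the exceptions of a list, here and below, were picked after their values were seen. FLNA averaged 3203 ± 162 and 12510.0 ± 207 in 2D and 3969 ± 87.3 and 12960.0 ± 465 in 3D. CSRP1 averaged 135 ± 1.42 and 713 ± 13.6 in 2D and 110.5 ± 2.31 and 456 ± 12.9 in 3D. WT raised both in each culture.

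Among the smooth muscle contractile regulators 3 of 8 were more positive and 2 more negative. Calponin 2 (CNN2), whose CArG box is shown above, was at 375 ± 6.43 CPM in 2D control, 858 ± 5.56 in 2D WT, 174 ± 10.3 in 3D control and 689 ± 18 in 3D WT, an interaction of 0.79 ± 0.06, adjusted p = 1.76e-08. Transgelin (TAGLN), an actin-bundling protein, went the other way: it stood at 4.55 ± 0.776 CPM in 2D control, 1307 ± 4.06 in 2D WT, 11.5 ± 3.2 in 3D control and 1148 ± 20.2 in 3D WT. WT raised it by 8.17 ± 0.19 in 2D and by 6.63 ± 0.14 in 3D, and the interaction of -1.54 ± 0.23, adjusted p = 0.000849 came from the control line, which rose by 1.35 ± 0.21 on gel while the WT line was at -0.19 ± 0.09 (adjusted p = 0.109). KCNMB1, a subunit of the smooth muscle potassium channel, had no counts in 2D control, 25.7 CPM in 2D WT, 0.0546 in 3D control and 11.4 in 3D WT, and its call was lost without any 1 control library. Calponin 1 (CNN1) stood at 0.486 ± 0.362 CPM in 2D control, 12.3 ± 0.507 in 2D WT, 0.0329 ± 0.057 in 3D control and 0.323 ± 0.184 in 3D WT, and its interaction of -1.74 ± 1.33, adjusted p = 0.502 was not called on counts but was on the TPM values.

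The actins split. ACTA2 (chromosome 10, 88935074 to 88991339), the smooth muscle actin, stood at 3.21, 2.84 and 3.82 CPM in 2D control, 693, 670.5 and 682 in 2D WT, 3.19, 2.87 and 2.37 in 3D control and at 1222, 1201 and 1210.0 in 3D WT. The control groups overlapped near 3 CPM, and every 3D WT library lay above every 2D WT library. This is a shift of the WT line (0.83 ± 0.04), with the control line at -0.25 ± 0.13 (adjusted p = 0.159), and the interaction was 1.07 ± 0.13, adjusted p = 1.17e-05. ACTG2, the enteric smooth muscle actin, was at 1077 CPM in 2D WT and 1347 in 3D WT, with 0.0496 CPM in 2D control and no counts in 3D control, so no fold is given (adjusted p = 0.0917 for the interaction, called on the TPM values). Of the 5 actins 2 were called (40.0%), both more positive. The myosin II light chain MYL9 was raised by 3.88 ± 0.06 in 2D and by 3.99 ± 0.06 in 3D, and its interaction of 0.11 ± 0.08, adjusted p = 0.364 was not called. Of 7 myosin II chains 2 were called (28.6%) and of 4 tropomyosins 1, both shares near the 24.5% of all genes. Of 7 actin turnover proteins 4 were called, a share above that of all genes. The called members of these groups were all more positive.

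The interactions of the regulators themselves were small. SRF was at 113 ± 4.92 CPM in 2D control, 407 ± 11.2 in 2D WT, 79.2 ± 1.9 in 3D control and 356 ± 17.4 in 3D WT, an interaction of 0.32 ± 0.06, adjusted p = 0.000701 with the control line losing more on gel (-0.52) than the WT line (-0.20). MRTFA had 0.28 ± 0.07, adjusted p = 0.00474, from a control line that fell by 0.36 and a WT line at -0.08 ± 0.04 (adjusted p = 0.0922). MRTFB, the paralogue, was lowered by WT in both cultures, at 39.7 ± 0.91 CPM in 2D control, 27.2 ± 1.71 in 2D WT, 49.2 ± 0.9 in 3D control and 40.2 ± 0.645 in 3D WT, and had 0.26 ± 0.07, adjusted p = 0.016 on counts, a value that turned to -0.19 on the deposited TPM values and was not called without 2D WT replicate 1. SRF and MRTFA were not called in the fit of all 24 libraries, nor were TAGLN and KCNMB1, and MRTFA was not called on the TPM values. The ternary complex factors ELK1, ELK3 and ELK4, which share SRF, were not called. ELK1 averaged 97.4 ± 3.17 and 82 ± 2.33 in 2D and 98.2 ± 4.52 and 83.4 ± 0.888 in 3D.

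The targets of YAP and TEAD, the other pair of mechanically controlled factors, mostly fell on gel in both lines. Of 22 tested members 12 were more positive and 1 more negative in the interaction (59.1% against 24.5%; median 0.29), 1 and 0 in the fit of all 24 libraries and 9 and 1 with replicate as a block. From 2D to 3D, 19 of 22 fell in the control line (median -1.04) and 18 in the WT line (median -0.77). WT raised 10 and lowered 9 in 2D, against 27.0% and 27.7% of all genes. In 3D it raised 13 and lowered 2, against 24.8% and 26.1%. CCN1 (chromosome 1, 85580761 to 85583962), a secreted matricellular protein, stood at 1390.0, 1457 and 1373 CPM in 2D control, 3214, 3108 and 3517 in 2D WT, 133, 139.7 and 131 in 3D control and at 611, 592 and 618 in 3D WT. No group overlapped another, and the 3D WT libraries lay below those of 2D control. Its interaction was 0.95 ± 0.06, adjusted p = 9.83e-09, with the control line down by 3.39 and the WT line by 2.43. CCN2, its close relative, was at 73.7 ± 2.81 CPM in 2D control, 553 ± 30.4 in 2D WT, 10.4 ± 0.888 in 3D control and 128 ± 2.71 in 3D WT (0.71 ± 0.08, adjusted p = 4.73e-06), and ANKRD1, a nuclear ankyrin repeat protein, at 224 ± 25.7 CPM in 2D control, 429 ± 3.1 in 2D WT, 15 ± 0.63 in 3D control and 60.5 ± 2.46 in 3D WT. The interaction of ANKRD1 was 1.07 ± 0.11, adjusted p = 5.2e-06. AMOTL2, an angiomotin that binds YAP, was lowered by WT in 2D (-0.23 ± 0.04) and raised in 3D (0.26 ± 0.04). These 4 were not called in the fit of all 24 libraries. The exception was F3 (-0.64), tissue factor. AMOTL2 averaged 249 ± 2.47 and 212 ± 2.56 in 2D and 72.1 ± 1.86 and 86.6 ± 3.89 in 3D. F3 averaged 621 ± 51.4 and 2334 ± 115 in 2D and 230.3 ± 17 and 554 ± 16.6 in 3D.

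**Figure D2:**
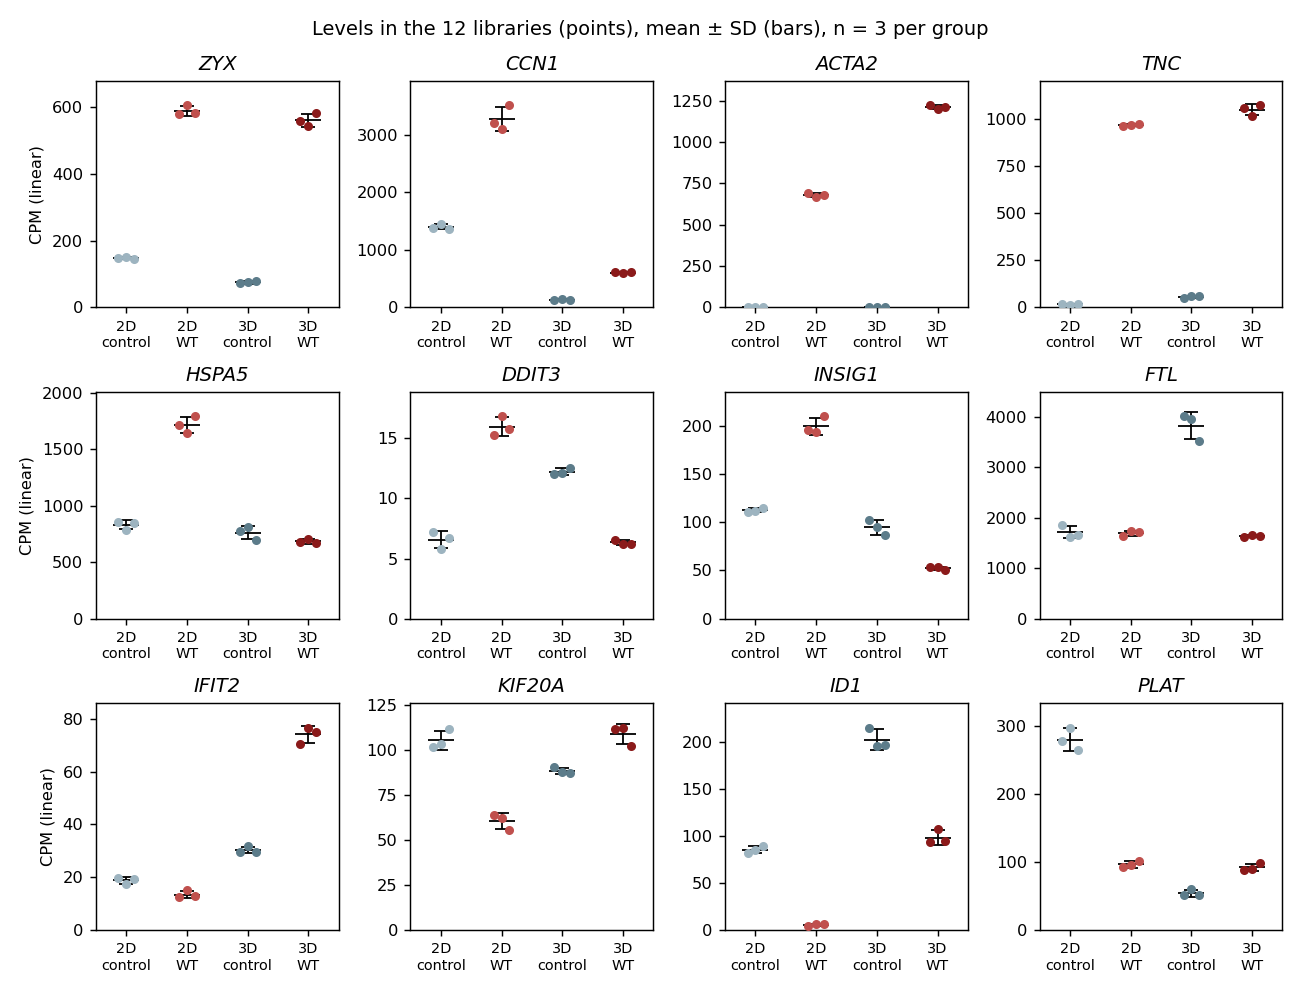
CPM on a linear axis for 12 genes in the 12 libraries, 3 points per group with mean and SD as bars. The interaction of ZYX sits in the control line and that of ACTA2 in the WT line; HSPA5 is high in 2D WT only, FTL in 3D control only, and ID1 is low in 2D WT only.

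The stress programme run by ATF4 showed the opposite pattern: WT raised most of it in 2D, and in 3D about as many members were raised as lowered. ATF4 is the transcription factor that is translated when amino acids run short or proteins misfold, and it turns on amino acid synthesis, amino acid import, tRNA charging and its own feedback inhibitors. Of 39 tested members 32 had a more negative interaction and 1 a more positive one (84.6% called against 24.5% of all genes, median -0.59). In the fit of all 24 libraries these were 24 and 1. WT raised 35 in 2D (median 0.75) and lowered 3, against 27.0% and 27.7% of all genes. In 3D it raised 15 and lowered 12 (median 0.04), against 24.8% and 26.1%. From 2D to 3D the WT line lost 36 members (median -0.83), against 33.4% of all genes. The control line lost 19 and gained 11 (median -0.17), against 31.6% and 30.2%.

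By role, 6 of 7 transcription factors of the list were more negative, 7 of 9 genes of amino acid synthesis, 6 of 8 amino acid transporters, 7 of 9 feedback and stress effectors and all 6 tRNA synthetases. ATF4 itself was at 116 ± 6.89 CPM in 2D control, 228 ± 1.99 in 2D WT, 81.7 ± 7.41 in 3D control and 84.1 ± 0.477 in 3D WT, an interaction of -0.94 ± 0.07, adjusted p = 9.79e-08; WT raised it in 2D by 0.98 ± 0.05 and it was at 0.04 ± 0.05 in 3D (adjusted p = 0.553). DDIT3 (chromosome 12, 57516588 to 57521737), the pro-apoptotic factor CHOP, stood at 7.19, 5.81 and 6.73 CPM in 2D control, 15.2, 16.8 and 15.8 in 2D WT, 12.1, 12.1 and 12.6 in 3D control and at 6.55, 6.22 and 6.24 in 3D WT. The 2D control and 3D WT libraries overlapped, the 3D control libraries lay above both, and 2D WT lay highest. WT raised it in 2D (1.27 ± 0.09) and lowered it in 3D (-0.95 ± 0.09), an interaction of -2.22 ± 0.13, adjusted p = 2.59e-09. PPP1R15A, the phosphatase subunit that ends the stress signal, reversed in the same way, at 75.4 ± 4.57 CPM in 2D control, 109 ± 3.35 in 2D WT, 97.9 ± 4.82 in 3D control and 55.9 ± 3.56 in 3D WT (-1.34 ± 0.08, adjusted p = 1.28e-09).

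The synthetases for alanine and glycine changed by less. AARS1, whose ATF4 element is shown above, was at 93.8 ± 7.38 CPM in 2D control, 135 ± 5.45 in 2D WT, 99.1 ± 1.18 in 3D control and 75.4 ± 2.52 in 3D WT (-0.92 ± 0.07, adjusted p = 4.47e-08), raised in 2D by 0.52 ± 0.05 and lowered in 3D (-0.39 ± 0.05). GARS1 was at 186 ± 2.83 CPM in 2D control, 353 ± 5.16 in 2D WT, 139.6 ± 4.49 in 3D control and 160.2 ± 2.29 in 3D WT (-0.72 ± 0.05, adjusted p = 7.91e-09) and was raised by WT in both cultures, by 0.92 ± 0.03 and 0.20 ± 0.03. The member more positive in 3D was ATF5 (0.69), a related transcription factor. ATF5 averaged 47.8 ± 0.239 and 33 ± 2.25 in 2D and 58.1 ± 3.12 and 64.6 ± 1.94 in 3D.

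Chaperones and the unfolded protein response of the endoplasmic reticulum followed the same pattern. Of 25 tested members 16 were more negative and none more positive (64.0% called against 24.5% of all genes, median -0.40). In the fit of all 24 libraries these were 11 and 0. WT raised 18 in 2D, against 27.0% of all genes, and lowered none. In 3D it raised 8 and lowered 8, against 24.8% and 26.1% of all genes. The WT line lost 20 of 25 on gel (median -0.44), against 33.4% of all genes. In the control line 7 rose and 8 fell, near the 30.2% and 31.6% of all genes. By role, 8 of 11 chaperones, 3 of 6 disulfide isomerases and 5 of 8 sensors and degradation factors were more negative. HSPA5 (chromosome 9, 125234853 to 125241330), the chaperone BiP, stood at 859.5, 786 and 848 CPM in 2D control, 1712, 1642 and 1791 in 2D WT, 775, 812 and 699.9 in 3D control and at 676, 704 and 669 in 3D WT. The 2D WT libraries lay far above all others, and the 3D WT libraries overlapped the lowest of 3D control. The interaction of HSPA5 was -1.20 ± 0.07, adjusted p = 3.57e-09, made of a WT line that fell on gel (-1.33 ± 0.05) and a control line that fell less (-0.12 ± 0.05, adjusted p = 0.0441). HERPUD1, of the degradation machinery, was at 38.5 ± 2.36 CPM in 2D control, 79.9 ± 1.41 in 2D WT, 38.4 ± 0.733 in 3D control and 34.9 ± 1.03 in 3D WT. The interaction of HERPUD1 was -1.19 ± 0.07, adjusted p = 2.96e-09. The chaperone HYOU1 had -0.58 ± 0.05, adjusted p = 1.9e-07. The cochaperone DNAJB9 had -0.87 ± 0.08, adjusted p = 4.14e-07; its level in 3D was 50.4 CPM in control and 54.9 in WT, where the WT effect of 0.12 ± 0.06 was not called. HYOU1 averaged 415 ± 3.46 and 674 ± 17.8 in 2D and 437 ± 14.4 and 473 ± 12.3 in 3D. DNAJB9 averaged 31.3 ± 1.58 and 62.1 ± 0.548 in 2D and 50.4 ± 3.44 and 54.9 ± 2.79 in 3D. For both the 2D WT mean was the highest of the 4.

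Genes of cholesterol and fatty acid synthesis had mostly more negative interactions. This pathway is switched on by SREBP2 when membrane sterols fall, and INSIG1 holds SREBP2 back. Of 32 tested members 17 were more negative and 1 more positive (56.2% called against 24.5% of all genes, median -0.22). In the fit of all 24 libraries these were 9 and 0. WT raised 17 and lowered 7 in 2D, against 27.0% and 27.7% of all genes. In 3D it raised 10 and lowered 11, against 24.8% and 26.1%. On gel the control line lost 23 and the WT line 26, against 31.6% and 33.4%. By role, 3 of 4 regulators, 9 of 18 cholesterol enzymes, all 3 uptake genes and 2 of 7 fatty acid genes were more negative. INSIG1 (chromosome 7, 155297776 to 155310235) stood at 110.5, 111 and 115 CPM in 2D control, 195, 193 and 209 in 2D WT, 102, 95.3 and 86.8 in 3D control and at 53.2, 53.2 and 50.4 in 3D WT. The 2D WT libraries lay above and the 3D WT libraries below all others. WT raised it in 2D (0.83 ± 0.05) and lowered it in 3D (-0.86 ± 0.05), and the interaction was -1.69 ± 0.07, adjusted p = 1.8e-10. MSMO1, a demethylase of the sterol ring, also changed sign (0.54 ± 0.06 and -0.24 ± 0.07; interaction -0.78 ± 0.09, adjusted p = 7.3e-06). STARD4, a sterol carrier, was raised in both cultures and less in 3D, with -0.59 ± 0.06, adjusted p = 2.34e-06. The exception was ELOVL6 (0.44), a fatty acid elongase. MSMO1 averaged 67.2 ± 2.87 and 97.5 ± 3.27 in 2D and 51.1 ± 5.91 and 43.2 ± 0.999 in 3D. STARD4 averaged 81.6 ± 3.49 and 183 ± 7.96 in 2D and 55.7 ± 1.08 and 83 ± 3.21 in 3D. In both the 2D WT mean was highest. ELOVL6 averaged 131 ± 6.91 and 87.9 ± 1.97 in 2D and 117 ± 6.01 and 106 ± 1.6 in 3D.

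Interferon response genes, which cells switch on against viruses, moved unevenly, and IFIT1, IFIT2 and IFIT3 were lowered by WT in 2D and raised in 3D. Of 42 tested members 14 were more positive and 2 more negative (38.1% called against 24.5%; median 0.21), 8 and 2 in the fit of all 24 libraries. WT raised 9 and lowered 17 in 2D, against 27.0% and 27.7% of all genes. In 3D it raised 18 and lowered 13, against 24.8% and 26.1%. By role the more positive members were 2 of 5 signal transducers, 1 of 3 RNA sensors, 7 of 22 antiviral effectors, 1 of 5 of the ISG15 pathway and 3 of 7 guanylate-binding proteins and chemokines. IFIT2 (chromosome 10, 89283694 to 89309276), which binds viral RNA, stood at 19.6, 17.2 and 19.4 CPM in 2D control, 12.4, 15 and 12.7 in 2D WT, 29.7, 31.7 and 29.4 in 3D control and at 70.7, 76.8 and 75 in 3D WT. Every 3D WT library lay above every other, and no group overlapped another. WT lowered it in 2D (-0.50 ± 0.08) and raised it in 3D (1.29 ± 0.06), an interaction of 1.79 ± 0.10, adjusted p = 1.23e-09.

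IFIT3, whose 2 response elements are shown above, was at 46.8, 43.5 and 47 CPM in 2D control, 32, 36 and 34.8 in 2D WT, 74.3, 73.3 and 71.1 in 3D control and at 141, 143 and 142 in 3D WT, and its groups did not overlap either. Its interaction was 1.39 ± 0.07, adjusted p = 3.43e-10, and both lines rose on gel, the control line by 0.67 ± 0.05 and the WT line by 2.06 ± 0.05. IFIT1 had 1.10 ± 0.11, adjusted p = 7.82e-07. GBP1, a guanylate-binding protein, was raised by WT in both cultures, at 38 ± 0.991 CPM in 2D control, 165 ± 4.04 in 2D WT, 26.1 ± 2.34 in 3D control and 187 ± 5.47 in 3D WT (0.73 ± 0.07, adjusted p = 8.56e-07), and was not called in the fit of all 24 libraries. GBP4, a low gene, stood at 1.56 ± 0.312 CPM in 2D control, 0.147 ± 0.0271 in 2D WT, 3.34 ± 0.894 in 3D control and 3.06 ± 0.0672 in 3D WT (3.22 ± 0.49, adjusted p = 3.02e-05, not called on log2(TPM + 1)). The more negative members were UBE2L6 (-0.57), the conjugating enzyme of ISG15, and CXCL11 (-1.52), a chemokine. IFIT1 averaged 21.2 ± 0.875 and 17.4 ± 1.61 in 2D and 30.1 ± 2.33 and 52.7 ± 3.49 in 3D. UBE2L6 averaged 32.3 ± 1.63 and 29.6 ± 2.12 in 2D and 27.5 ± 2.59 and 16.9 ± 1.09 in 3D. CXCL11 averaged 0.319 ± 0.162 and 3.9 ± 0.659 in 2D and 2.35 ± 0.41 and 10.2 ± 1.04 in 3D.

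**Figure D3:**
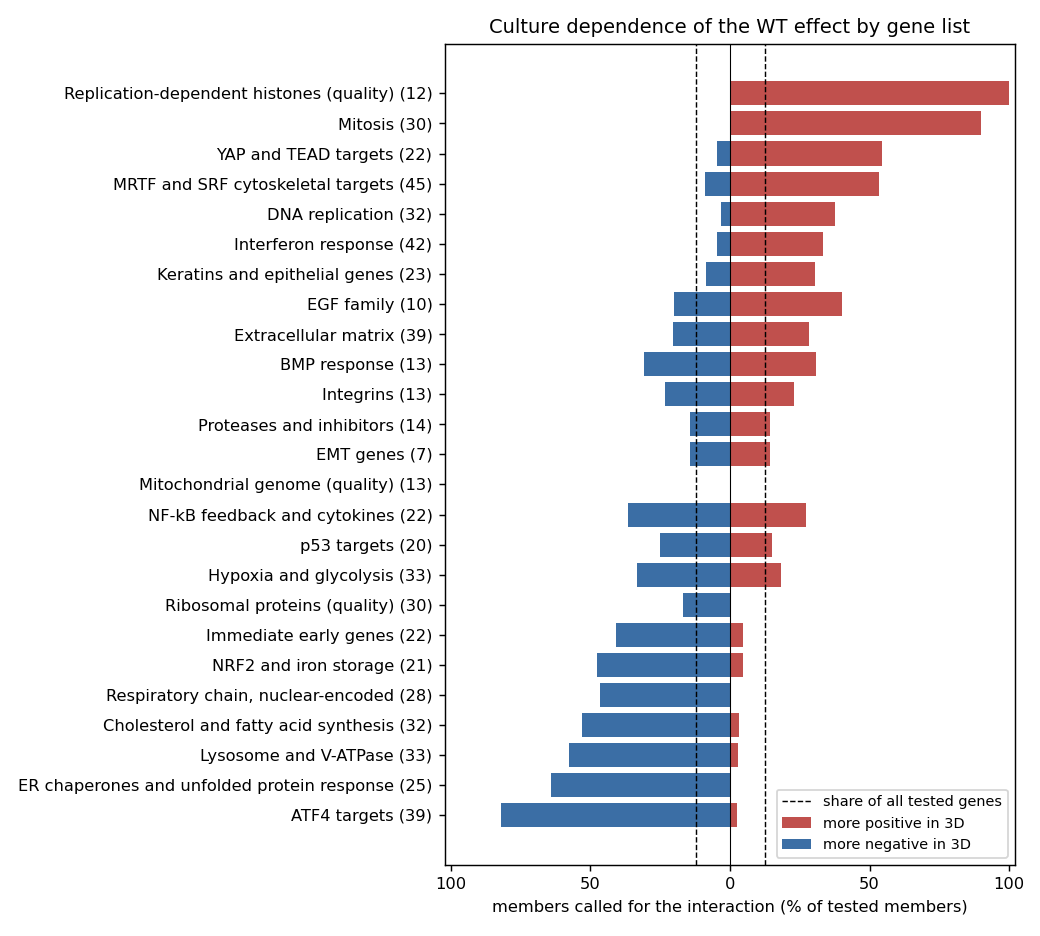
Share of the tested members of each gene list called for the interaction, more positive in 3D to the right and more negative to the left, with the number tested in brackets and the shares over all tested genes, 12.4% and 12.2%, dashed. Histones (12 of 12) and mitosis (27 of 30) lie at the top, and ATF4 targets (32 of 39) at the bottom.

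Genes of mitosis were mostly lowered by WT in 2D and mostly had more positive interactions. Of 30 tested members 27 were more positive and none more negative (median 0.41, against 24.5% of all genes called), but 7 and 0 in the fit of all 24 libraries. WT lowered 27 in 2D (median -0.44), against 27.7% of all genes. In 3D it raised 9 and lowered 9 (median -0.04), against 24.8% and 26.1%. On gel the WT line gained 25 of 30 (median 0.27), against 30.9% of all genes. The control line lost 18 and gained 7 (median -0.18), against 31.6% and 30.2%. KIF20A (chromosome 5, 138178719 to 138187715), a kinesin of the dividing cell's midzone, stood at 101, 103 and 111 CPM in 2D control, 63.9, 61.8 and 55.5 in 2D WT, 90.3, 87.5 and 86.9 in 3D control and at 111, 112 and 102 in 3D WT. Only 2D WT lay below all other groups, and the 3D WT libraries overlapped those of 2D control. WT lowered it in 2D (-0.80 ± 0.05) and raised it in 3D (0.30 ± 0.05), with 1.10 ± 0.08, adjusted p = 1.13e-08. The mitotic kinases PLK1 (0.81 ± 0.07, adjusted p = 2.15e-07) and AURKA (0.61 ± 0.05, adjusted p = 2.72e-07) changed sign in the same way. KIF23, whose CHR motif is shown above, was at 147 ± 2.36 CPM in 2D control, 150.5 ± 4.62 in 2D WT, 133 ± 1.41 in 3D control and 208 ± 4.68 in 3D WT (0.61 ± 0.05, adjusted p = 7.78e-08), raised by WT in 3D only. PLK1 was not called in the fit of all 24 libraries. PLK1 averaged 103 ± 4.89 and 73.6 ± 1.3 in 2D and 68.7 ± 1.28 and 85.7 ± 6.07 in 3D. AURKA averaged 163 ± 2.24 and 130.2 ± 4.96 in 2D and 111 ± 4.96 and 136 ± 1.57 in 3D. In both the control line fell on gel.

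DNA replication genes rose on gel in both lines, and WT lowered most of them in both cultures. All 32 tested members were higher in 3D than in 2D in the control line (median 0.56) and all 32 in the WT line (median 0.81), against 30.2% and 30.9% of all genes. WT lowered 26 in 2D and 22 in 3D. The interaction was more positive for 12 and more negative for 1, POLA1 (-0.21), the catalytic subunit of DNA polymerase alpha (40.6% called, median 0.16). DESeq2 on the 12 libraries called 12 and 1, as did edgeR's fit of all libraries but 3D dSRF replicate 1. With that library included, edgeR's fit of all 24 called 0. There 2 were more positive and 1 more negative at an unadjusted p under 0.05. TYMS, thymidylate synthase, was at 210.1 ± 3.4 CPM in 2D control, 131 ± 2.89 in 2D WT, 300.2 ± 5.8 in 3D control and 246 ± 0.578 in 3D WT. The interaction of TYMS was 0.40 ± 0.05, adjusted p = 4.78e-06. The helicase subunits MCM5 (0.40 ± 0.07, adjusted p = 0.000216) and MCM6 (0.38 ± 0.08, adjusted p = 0.00164) and the flap nuclease FEN1 (0.27 ± 0.06, adjusted p = 0.0018) were also more positive. MCM5 averaged 83.3 ± 1.01 and 53.3 ± 2.27 in 2D and 104 ± 6.47 and 87.8 ± 1.29 in 3D. MCM6 averaged 132 ± 2.9 and 89.5 ± 5.66 in 2D and 183 ± 16.1 and 160.5 ± 0.521 in 3D. FEN1 averaged 107 ± 3.35 and 84.5 ± 1.7 in 2D and 143 ± 6.84 and 136 ± 0.55 in 3D. In each the 2D WT mean was lowest and the 3D control mean highest. POLA1 averaged 60.1 ± 2.19 and 52.6 ± 1.48 in 2D and 129 ± 2.94 and 97.6 ± 0.886 in 3D. TYMS, MCM5, MCM6 and FEN1 were not called in the fit of all 24 libraries.

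Replication-dependent histones, whose messages peak in S phase and lack a poly(A) tail, were all 12 more positive (median 0.74). DESeq2 on the 12 libraries also called 12, as did edgeR's fit of all libraries but 3D dSRF replicate 1. With that library included, edgeR's fit of all 24 called 0, with 2 at an unadjusted p under 0.05. WT lowered all 12 in 2D (median -0.86), and in 3D it raised 1 and lowered 4 (median -0.09). H4C8 stood at 103, 97.7 and 107 CPM in 2D control, 47.1, 49.5 and 45.1 in 2D WT, 144, 144 and 142 in 3D control and at 123, 119 and 116 in 3D WT. The 2D WT libraries were lowest, and no group overlapped another. The interaction of H4C8 was 0.86 ± 0.06, adjusted p = 2.13e-08, and that of H2BC21 was 0.82 ± 0.07, adjusted p = 1.03e-07. H2BC21 averaged 149.7 ± 5.98 and 81.9 ± 1.18 in 2D and 207 ± 10.2 and 199.5 ± 12.1 in 3D. Histone genes are near-identical copies, so the split of counts between them is uncertain. As a share of all counts they took 0.174% to 0.186% in 2D control, 0.0936% to 0.099% in 2D WT, 0.236% to 0.257% in 3D control and 0.198% to 0.22% in 3D WT. The labels name both polyA RNA and ribosomal depletion, and the part of library chemistry in these shares was not tested.

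**Figure D4:**
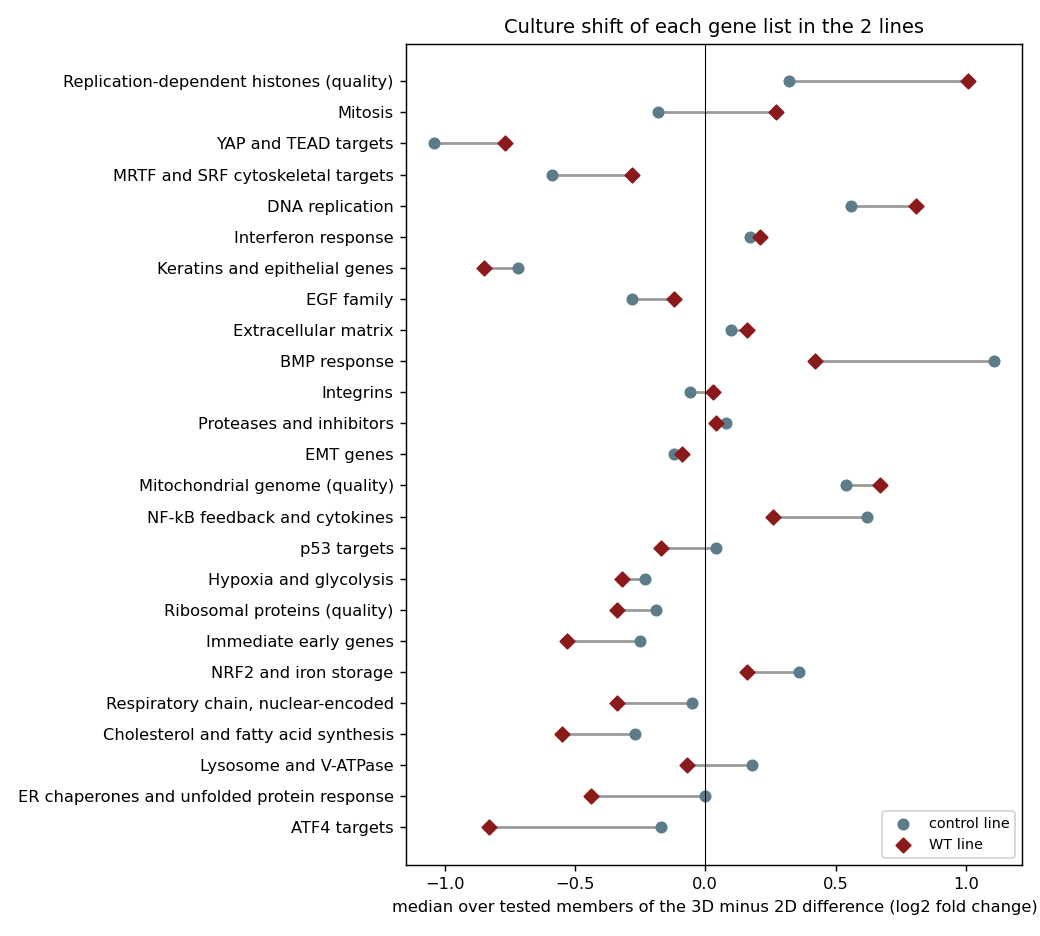
Median over the tested members of each list of the 3D minus 2D log2 difference, in the control line (circle) and in the WT line (diamond), joined by a bar. The median of the ATF4 targets was -0.17 in the control line and -0.83 in the WT line, and that of the YAP and TEAD targets -1.04 and -0.77.

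Iron storage differed through the control line. Ferritin stores iron, and its light chain FTL (chromosome 19, 48965301 to 48966878) stood at 1850.0, 1627 and 1655 CPM in 2D control, 1628, 1728 and 1709 in 2D WT, 4007, 3953 and 3521 in 3D control and at 1622, 1651 and 1634 in 3D WT. The 3D control libraries lay far above the rest, and the other 9 overlapped between 1622 and 1850 CPM. Thus WT was at -0.02 ± 0.05 in 2D (adjusted p = 0.782) and lowered FTL in 3D (-1.23 ± 0.05), with an interaction of -1.21 ± 0.07, adjusted p = 4.25e-09 and a WT line at -0.05 ± 0.05 (adjusted p = 0.461). The heavy chain FTH1 was at 900.4 ± 42.5 CPM in 2D control, 677 ± 45.5 in 2D WT, 1776 ± 81 in 3D control and 759 ± 53.1 in 3D WT. The interaction of FTH1 was -0.82 ± 0.08, adjusted p = 3.53e-06. The transferrin receptor TFRC, which imports iron, was at 449 ± 16.5 CPM in 2D control, 542 ± 10.1 in 2D WT, 642 ± 18.1 in 3D control and 488 ± 2.92 in 3D WT (-0.67 ± 0.05, adjusted p = 4.13e-08). Across the NRF2 and iron list of 21, 10 were more negative and 1, OSGIN1 (0.62), an oxidative stress response gene, more positive (52.4% called; median -0.24), 3 and 0 in the fit of all 24 libraries. On gel 13 of 21 rose in the control line and 12 in the WT line. OSGIN1 averaged 7.24 ± 0.318 and 4.06 ± 0.594 in 2D and 19.3 ± 0.255 and 16.5 ± 1.09 in 3D.

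Lysosome and V-ATPase genes, which serve degradation and its acidity, were more negative for 19 of 33 and more positive for 1, the protease CTSB (0.35). Of the list 60.6% were called, against 24.5% of all genes, with a median of -0.22. Of these members 11 and 1 were called in the fit of all 24 libraries. WT raised 18 and lowered 10 in 2D, against 27.0% and 27.7% of all genes. In 3D it raised 9 and lowered 20, against 24.8% and 26.1%. By role 8 of 13 hydrolases, 5 of 10 membrane proteins and 6 of 10 V-ATPase subunits were more negative. SQSTM1, the autophagy receptor p62, was at 332 ± 18.8 CPM in 2D control, 319 ± 16.6 in 2D WT, 828 ± 22.6 in 3D control and 433 ± 10.4 in 3D WT (-0.88 ± 0.06, adjusted p = 2.14e-08), its 3D control far above the rest as for FTL. GPNMB, a lysosomal glycoprotein, was at 3.41 ± 0.301 CPM in 2D control, 4.78 ± 0.767 in 2D WT, 20.4 ± 1.93 in 3D control and 6.21 ± 0.367 in 3D WT. The interaction of GPNMB was -2.20 ± 0.18, adjusted p = 8.74e-08. The interaction of the hydrolase NEU1 was smaller (-0.70 ± 0.07, adjusted p = 1.92e-06). NEU1 averaged 116 ± 7.52 and 138 ± 2.56 in 2D and 145 ± 9.63 and 106 ± 4.54 in 3D and was highest in 3D control. CTSB averaged 1318 ± 12.4 and 653 ± 17.7 in 2D and 531 ± 19.7 and 336 ± 3.17 in 3D.

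Nuclear-encoded genes of the respiratory chain were more negative for 13 of 28 and more positive for none (46.4% called; median -0.19), 1 and 0 in the fit of all 24 libraries and 4 and 0 on the TPM values. ATP5PO (-0.41 ± 0.06, adjusted p = 7.35e-05) and ATP5F1A (-0.27 ± 0.05, adjusted p = 0.000421), subunits of ATP synthase, NDUFA4 (-0.44 ± 0.08, adjusted p = 0.000553) and COX7C (-0.30 ± 0.06, adjusted p = 0.000806), of cytochrome oxidase, were all small in size. ATP5PO averaged 99.7 ± 0.619 and 116 ± 0.755 in 2D and 100.2 ± 4.79 and 87.5 ± 4.37 in 3D. ATP5F1A averaged 383 ± 6.69 and 400.5 ± 3.64 in 2D and 374 ± 13 and 325 ± 3.58 in 3D. In each of these genes 3D WT had the lowest mean. NDUFA4 averaged 49.8 ± 1.89 and 59.3 ± 3.42 in 2D and 50.4 ± 2.19 and 44.4 ± 2.48 in 3D. COX7C averaged 134 ± 0.744 and 152 ± 3.02 in 2D and 112 ± 2.77 and 102 ± 6.06 in 3D. In the fit of all 24 libraries ATP5PO, ATP5F1A and NDUFA4 were not called. Of the 13 genes of the mitochondrial genome 0 were called by edgeR or by DESeq2, and 0 had an unadjusted p under 0.05. Their share of counts was uneven within groups, 0.398% to 0.89% in 2D control and 0.94% to 1.45% in 3D control.

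BMP signalling is a pathway in which secreted ligands activate SMAD factors and the ID genes. On gel 9 of 13 tested members rose in the control line and 10 in the WT line, against 30.2% and 30.9% of all genes. ID1, ID3 and ATOH8 were lowered by WT in both cultures, further in 2D. ID1 (chromosome 20, 31605283 to 31606515), an inhibitor of differentiation factors, stood at 81.6, 85.2 and 89.8 CPM in 2D control, 4.38, 5.79 and 5.9 in 2D WT, 216, 196 and 197 in 3D control and at 93.2, 107 and 94.6 in 3D WT. The 2D WT libraries lay far below all others, 3D control lay highest, and 3D WT lay just above 2D control. WT lowered it by 4.00 in 2D and by 1.05 in 3D, an interaction of 2.96 ± 0.13, adjusted p = 6.54e-10, and both lines rose on gel, control by 1.25 ± 0.06 and WT by 4.20 ± 0.12. ID3 was at 45.4 ± 3.86 CPM in 2D control, 7.86 ± 0.367 in 2D WT, 139.6 ± 2.81 in 3D control and 73.2 ± 2.43 in 3D WT (1.60 ± 0.09, adjusted p = 1.23e-09) and ATOH8, a related helix-loop-helix factor, at 6.9 ± 1.37 CPM in 2D control, 0.165 ± 0.0862 in 2D WT, 34.3 ± 4.75 in 3D control and 10.6 ± 0.793 in 3D WT. The interaction of ATOH8 was 3.60 ± 0.50, adjusted p = 4.64e-06. ID2 differed from these: it was at 0.489 CPM in 2D control and 0.426 in 2D WT, rose on gel to 6.04 CPM in control and 1.3 in WT, and had -2.02 ± 0.38, adjusted p = 0.000733. Of 13 tested members 4 were more positive and 4 more negative (61.5% called against 24.5% of all genes, median -0.09). In the fit of all 24 libraries these were 2 and 0, and ID2 and ID3 were not called there. The fourth more positive member was the receptor BMPR1A (0.19), and the others more negative were SMAD7 (-0.51), SMAD9 (-0.83) and HES1 (-0.97). BMPR1A averaged 102 ± 2.65 and 105 ± 2.5 in 2D and 105 ± 0.488 and 122 ± 1.84 in 3D. SMAD7 averaged 15.4 ± 1.77 and 12.4 ± 0.481 in 2D and 29.4 ± 0.56 and 16.6 ± 0.907 in 3D. SMAD7 and SMAD9 are an inhibitory and a receptor-activated SMAD. SMAD9 averaged 8.24 ± 1.37 and 10.7 ± 1.18 in 2D and 17.8 ± 1.21 and 13 ± 0.377 in 3D. HES1 averaged 1.28 ± 0.398 and 2.67 ± 0.239 in 2D and 7.1 ± 0.399 and 7.44 ± 0.255 in 3D.

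The extracellular matrix split by gene. Of 39 tested members 11 were more positive and 8 more negative (48.7% called against 24.5% of all genes, median 0.03). In the fit of all 24 libraries these were 4 and 3. TNC (chromosome 9, 115019578 to 115118257), tenascin, an adhesion-modulating matrix protein, stood at 18.2, 12.2 and 19.5 CPM in 2D control, 964, 968 and 972 in 2D WT, 51.6, 61 and 58.4 in 3D control and at 1057, 1018 and 1074 in 3D WT. The 3D control libraries all lay above those in 2D, and WT lay far above control in both cultures. WT raised it by 5.84 ± 0.12 in 2D and 4.20 ± 0.10 in 3D, and the interaction of -1.64 ± 0.15, adjusted p = 3.36e-05 came from the control line, which rose by 1.76 ± 0.13, with the WT line at 0.12 ± 0.09 (adjusted p = 0.269). THBS1, thrombospondin, was at 3138 ± 249.8 CPM in 2D control, 3668 ± 108 in 2D WT, 1099 ± 66.3 in 3D control and 2604 ± 142 in 3D WT (1.02 ± 0.08, adjusted p = 3.03e-07), and the basement membrane collagen COL4A1 at 121 ± 1.29 CPM in 2D control, 295 ± 11.4 in 2D WT, 98.4 ± 4.09 in 3D control and 391 ± 11.8 in 3D WT (0.70 ± 0.06, adjusted p = 7.21e-08). TGM2, a matrix crosslinker, was lowered by WT in 2D (-0.81 ± 0.06) and raised in 3D (0.51 ± 0.06), with 1.33 ± 0.08, adjusted p = 2.14e-08. The crosslinker LOX was raised in 2D (0.58 ± 0.05) and was at -0.01 ± 0.05 in 3D, with -0.59 ± 0.07, adjusted p = 6.43e-06. THBS1 and LOX were not called in the fit of all 24 libraries. TGM2 averaged 1027 ± 60.4 and 585 ± 13.9 in 2D and 218 ± 19.1 and 312 ± 13.5 in 3D. LOX averaged 80.0 ± 4.62 and 119.8 ± 2.8 in 2D and 114 ± 7.37 and 114 ± 3.76 in 3D.

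Among 13 integrins, the receptors for matrix, 3 were more positive and 3 more negative (46.2% called against 24.5% of all genes). In the fit of all 24 libraries these were 1 and 0. ITGA1, of a collagen receptor, was at 34.2 ± 3.03 CPM in 2D control, 105 ± 1.72 in 2D WT, 51.5 ± 2.82 in 3D control and 236 ± 5.14 in 3D WT (0.58 ± 0.07, adjusted p = 1.39e-05, not called on log2(TPM + 0.1)), and ITGA5, of the fibronectin receptor, at 189 ± 5.67 CPM in 2D control, 1803 ± 27 in 2D WT, 149 ± 2.62 in 3D control and 1835 ± 67.1 in 3D WT. The interaction of ITGA5 was 0.37 ± 0.05, adjusted p = 6.24e-05. ITGAV had -0.30 ± 0.06, adjusted p = 0.00112 and ITGA3, of a laminin receptor, -0.23 ± 0.06, adjusted p = 0.00708, lost without 2D Control replicate 2 and on the TPM values. ITGA5, ITGAV and ITGA3 were not called in the fit of all 24 libraries. The other called members were ITGB1 (0.18) and ITGA6 (-0.19). ITGAV averaged 271 ± 12.4 and 415 ± 7.58 in 2D and 533 ± 18 and 665 ± 27.9 in 3D. ITGA3 averaged 1491 ± 82.3 and 2133 ± 29.4 in 2D and 1833 ± 26.8 and 2233 ± 84 in 3D. Both rose on gel in the control line. ITGB1 averaged 1711 ± 36.5 and 2234 ± 36.5 in 2D and 1543 ± 74.6 and 2280.0 ± 80.5 in 3D. The WT effect on ITGA6 was 0.30 ± 0.04 in 2D and 0.11 ± 0.04 in 3D, with group means of 556 CPM in 2D control, 684 in 2D WT, 535 in 3D control and 576 in 3D WT.

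Proteases and their inhibitors changed rarely, 2 of 14 more positive and 2 more negative (28.6% called, near the 24.5% of all genes), 1 and 1 in the fit of all 24 libraries. PLAT (chromosome 8, 42175233 to 42207724), tissue plasminogen activator, stood at 278, 298 and 265 CPM in 2D control, 92.4, 94.7 and 102 in 2D WT, 51.1, 59.4 and 50.9 in 3D control and at 88.7, 88.9 and 97.9 in 3D WT. The control line was highest in 2D and lowest in 3D, while the WT libraries of both cultures overlapped between those levels. The control line fell on gel by 2.38, the WT line was at -0.07 ± 0.06 (adjusted p = 0.365), and the interaction of 2.31 ± 0.09, adjusted p = 6.96e-10 turned a lowering by WT in 2D (-1.54 ± 0.06) into a rise in 3D (0.77 ± 0.07). SERPINE2, a low protease inhibitor, had -1.78 ± 0.39, adjusted p = 0.00251, MMP24 0.90 ± 0.23, adjusted p = 0.00752 and TIMP2 -0.20 ± 0.06, adjusted p = 0.0141; of these SERPINE2 was not called on log2(TPM + 1), MMP24 and TIMP2 were not called on either TPM scale or in the fit of all 24 libraries, and TIMP2 was not called without 2D Control replicate 1 or 2 or 3D Control replicate 1. SERPINE2 averaged 0.687 ± 0.331 and 1.7 ± 0.163 in 2D and 3.31 ± 0.419 and 2.38 ± 0.344 in 3D. MMP24 averaged 7 ± 0.69 and 21.7 ± 1.35 in 2D and 1.51 ± 0.565 and 8.82 ± 0.572 in 3D. TIMP2 averaged 1060.0 ± 37 and 1191 ± 40.1 in 2D and 901 ± 37.8 and 879 ± 18.3 in 3D.

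Most keratins and epithelial genes were raised by WT in both cultures, 17 of 23 in 2D and 16 in 3D, against 27.0% and 24.8% of all genes. On gel 17 fell in the control line and 21 in the WT line, against 31.6% and 33.4% of all genes. The interaction was more positive for 7 and more negative for 2, DSG2 and CLDN1 (39.1% called against 24.5% of all genes, median 0.04). In the fit of all 24 libraries these were 2 and 1. KRT7 was at 381 ± 14.6 CPM in 2D control, 494 ± 14.8 in 2D WT, 102 ± 2.46 in 3D control and 204 ± 4.66 in 3D WT (0.62 ± 0.05, adjusted p = 1.87e-07), KRT80 had 0.70 ± 0.09, adjusted p = 3.48e-05, and DSG2, a desmosomal cadherin, -0.56 ± 0.06, adjusted p = 8.03e-07. CLDN1, a tight junction protein, had -0.68. KRT80 averaged 278 ± 24.7 and 324 ± 9.93 in 2D and 85.8 ± 6.22 and 162 ± 5.41 in 3D. DSG2 averaged 158 ± 2.67 and 288 ± 6.75 in 2D and 156 ± 8.96 and 194 ± 1.77 in 3D. KRT80 fell on gel in both lines, and DSG2 only in the WT line by the test. CLDN1 averaged 13.8 ± 2.23 and 22.3 ± 1.14 in 2D and 4.77 ± 0.414 and 4.83 ± 0.636 in 3D. ELF3 averaged 16.6 ± 0.887 and 6.45 ± 0.99 in 2D and 4.5 ± 1.2 and 3.55 ± 0.463 in 3D. The epithelial factor ELF3 had 1.03 ± 0.23, adjusted p = 0.00262, not called in the fit of all 24 libraries or on the TPM values. KRT17 was raised from 0.0791 to 245 CPM in 2D and from 0.112 to 93.9 in 3D. Its interaction was not called (adjusted p = 0.103) except without 2D Control replicate 2 and on log2(TPM + 1), although the WT line itself fell on gel by 1.38. Of 7 genes of the epithelial to mesenchymal transition 1 was more positive and 1 more negative (28.6% called, near the 24.5% of all genes), as with DESeq2. In edgeR's fit of all 24 libraries 0 and 0 were called, with 1 and 0 at an unadjusted p under 0.05. With 3D dSRF replicate 1 left out of that fit, 1 and 0 were called. CDH11, a mesenchymal cadherin, was more positive (1.36 ± 0.09, adjusted p = 1.39e-08). It was at 98.3 ± 4.99 CPM in 2D control, 36 ± 1.01 in 2D WT, 34.6 ± 3.69 in 3D control and 32.3 ± 1.33 in 3D WT. The control line fell on gel by 1.51, to near the level of 2D WT, and the WT line was at -0.15 ± 0.07 (adjusted p = 0.0591). The interaction of CDH11 was not called in the fit of all 24 libraries. VIM, vimentin, at -0.14 (adjusted p = 0.0461), lost its call without any 1 of the 12 libraries.

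The caveolar coat protein CAV1 (chromosome 7, 116524785 to 116561184), among the markers of MDA-MB-231, stood at 922, 922 and 1005 CPM in 2D control, 973, 999 and 994 in 2D WT, 519, 531 and 479 in 3D control and at 1120.0, 1139 and 1087 in 3D WT. The 3D control libraries lay below all others, and 3D WT lay highest. WT was at 0.06 ± 0.04 in 2D (adjusted p = 0.276) and raised it by 1.13 ± 0.04 in 3D, with an interaction of 1.07 ± 0.06, adjusted p = 1.29e-09. The control line fell on gel (-0.90 ± 0.04) and the WT line rose by less (0.17 ± 0.04). CD44, the hyaluronan receptor, had -0.39 ± 0.07, adjusted p = 0.000596 and GATA3, a luminal factor, 0.69 ± 0.11, adjusted p = 0.000171, the latter not called in the fit of all 24 libraries. CD44 averaged 875 ± 65.6 and 796 ± 2.02 in 2D and 1486 ± 84.8 and 1034 ± 34.8 in 3D. GATA3 averaged 26.6 ± 2.08 and 11.4 ± 0.22 in 2D and 16.5 ± 0.704 and 11.4 ± 0.294 in 3D.

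Inflammatory genes did not move as a block. Of 22 NF-kB feedback genes and cytokines 6 were more positive and 8 more negative (63.6% called against 24.5% of all genes, median 0.00). In the fit of all 24 libraries these were 2 and 1. The feedback inhibitor TNFAIP3 was at 19.4 ± 1.71 CPM in 2D control, 73.5 ± 2 in 2D WT, 70.1 ± 6.27 in 3D control and 98.1 ± 3.81 in 3D WT (-1.44 ± 0.09, adjusted p = 7.86e-09), low in 2D control only. The cytokines IL6 and CSF2 were raised by WT in 2D (0.76 ± 0.09 and 0.82 ± 0.09) and lowered in 3D (-0.58 ± 0.09 and -0.73 ± 0.08), with -1.35 ± 0.13, adjusted p = 1.75e-06 and -1.55 ± 0.12, adjusted p = 2.14e-07. The chemokine CXCL1 was lowered in both, at 37.1 ± 1.91 CPM in 2D control, 6.16 ± 0.201 in 2D WT, 80.1 ± 7.39 in 3D control and 24.7 ± 1.8 in 3D WT. The interaction of CXCL1 was 0.89 ± 0.12, adjusted p = 1.69e-05. IL6, CSF2 and CXCL1 were not called in the fit of all 24 libraries. IL6 averaged 24.4 ± 3.1 and 41.6 ± 2.14 in 2D and 43.1 ± 4.96 and 28.8 ± 0.645 in 3D. CSF2 averaged 27.2 ± 4.05 and 48.4 ± 1.92 in 2D and 46.5 ± 3.89 and 28 ± 0.283 in 3D. In both cytokines 2D WT and 3D control had the higher means.

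Immediate early genes, which growth signals switch on within minutes, were more negative for 9 of 22 and more positive for 1. Of the list 45.5% were called, against 24.5% of all genes (median -0.29). In the fit of all 24 libraries 5 were more negative and 0 more positive. FOSB (chromosome 19, 45467995 to 45475179), an AP-1 subunit, stood at 0.671, 0.695 and 0.424 CPM in 2D control, 5.68, 5.52 and 5.27 in 2D WT, 2.67, 1.95 and 2.42 in 3D control and at 1.88, 1.4 and 1.68 in 3D WT, all low levels. The 2D WT libraries lay above every other, and 3D control and 3D WT almost met. WT raised it in 2D by 3.19 ± 0.24 and was at -0.50 ± 0.22 in 3D (adjusted p = 0.0606), with -3.69 ± 0.33, adjusted p = 2e-07. The phosphatase DUSP2 was at 4.6 ± 1.18 CPM in 2D control, 17.7 ± 1.37 in 2D WT, 6.12 ± 0.23 in 3D control and 4.51 ± 0.532 in 3D WT (-2.40 ± 0.21, adjusted p = 1.63e-07), and JUN had -0.36 ± 0.06, adjusted p = 0.000165. DUSP6, which restrains ERK, was the exception (0.58 ± 0.07, adjusted p = 9.78e-06). JUN and DUSP6 were not called in the fit of all 24 libraries. JUN averaged 117 ± 5.29 and 144 ± 2.65 in 2D and 96.8 ± 1.97 and 92.9 ± 3.73 in 3D. DUSP6 averaged 94 ± 3.98 and 45 ± 1.3 in 2D and 49.3 ± 2.17 and 35.2 ± 0.805 in 3D.

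Of 10 ligands and receptors of the EGF family 6 were called (60.0%): EGF (0.56 ± 0.14, adjusted p = 0.00663), NRG1 (0.56 ± 0.12, adjusted p = 0.00192), TGFA (0.35 ± 0.09, adjusted p = 0.00896) and HBEGF (0.34) more positive, EREG (-0.93 ± 0.09, adjusted p = 7.59e-07) and the receptor EGFR (-0.17) more negative. EREG was at 20.4 ± 1.74 CPM in 2D control, 46.1 ± 1.06 in 2D WT, 37.1 ± 2.56 in 3D control and 43.8 ± 1.84 in 3D WT. In the fit of all 24 libraries 1 and 0 were called, with EREG, NRG1, TGFA, HBEGF and EGFR lost, on the TPM values EGF, NRG1, TGFA and EGFR were not called, and EGFR also lost its call when some single libraries were left out. EGF averaged 3.9 ± 0.431 and 44.3 ± 1.93 in 2D and 2.39 ± 0.255 and 40.5 ± 2 in 3D. NRG1 averaged 22.2 ± 2.36 and 23.4 ± 1.63 in 2D and 19.7 ± 1.18 and 30.6 ± 1.99 in 3D. TGFA averaged 77.1 ± 9.64 and 88.1 ± 1.64 in 2D and 72.7 ± 0.875 and 106 ± 2.57 in 3D. WT was called against control for NRG1 in 3D and not in 2D. HBEGF averaged 117 ± 12.3 and 205 ± 5.03 in 2D and 65.2 ± 5.07 and 144 ± 6.95 in 3D. EGFR averaged 630.0 ± 25.6 and 526 ± 6.32 in 2D and 482 ± 9.72 and 358 ± 11.4 in 3D.

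Of 20 p53 targets 3 were more positive and 5 more negative (40.0% called against 24.5% of all genes). In the fit of all 24 libraries these were 0 and 3. CDKN1A, the cell cycle inhibitor p21, was at 130.5 ± 4.97 CPM in 2D control, 244 ± 4.97 in 2D WT, 292 ± 15.7 in 3D control and 269 ± 13.5 in 3D WT (-1.03 ± 0.06, adjusted p = 3.57e-09), low in 2D control only. BTG2, a low antiproliferative gene, was raised by WT in 2D (0.72 ± 0.17) and lowered in 3D (-0.68 ± 0.16), with -1.41 ± 0.23, adjusted p = 0.000216. GADD45A, a stress sensor, had -0.39 ± 0.09, adjusted p = 0.00328, not called in the fit of all 24 libraries. BTG2 averaged 2.82 ± 0.403 and 4.66 ± 0.706 in 2D and 5.52 ± 0.266 and 3.43 ± 0.427 in 3D. GADD45A averaged 23.1 ± 1.37 and 46.7 ± 2.12 in 2D and 19.1 ± 0.625 and 29.6 ± 0.969 in 3D.

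Hypoxia and glycolysis genes were more positive for 6 of 33 and more negative for 11 (51.5% called against 24.5% of all genes, median 0.00). In the fit of all 24 libraries these were 1 and 3. The glucose transporter SLC2A3 was at 54.7 ± 2.27 CPM in 2D control, 76.7 ± 5.67 in 2D WT, 45.3 ± 2.56 in 3D control and 38.4 ± 1.51 in 3D WT (-0.73 ± 0.08, adjusted p = 5.32e-06), the collagen hydroxylase P4HA2 had -0.63 ± 0.05, adjusted p = 1.41e-07 and hexokinase HK2 -0.50 ± 0.06, adjusted p = 6.43e-06; the last 2 were not called in the fit of all 24 libraries. P4HA2 averaged 124 ± 2.77 and 210.1 ± 5.79 in 2D and 168 ± 5.41 and 184 ± 5.43 in 3D. HK2 averaged 97.7 ± 5.2 and 179 ± 0.391 in 2D and 67.6 ± 2.14 and 87.5 ± 2.41 in 3D. The 4 metallothioneins were all lowered by WT in both cultures, and 1 was called in each direction. These were MT1E (0.33 ± 0.11, adjusted p = 0.0309) and MT1X (-0.61 ± 0.18, adjusted p = 0.0191), neither called by DESeq2 or in the fit of all 24 libraries, and MT1E not on the TPM values. MT1E averaged 61.4 ± 2.97 and 21.5 ± 0.713 in 2D and 33.2 ± 3.46 and 14.7 ± 1.21 in 3D. MT1X averaged 7.92 ± 0.646 and 5.48 ± 0.691 in 2D and 9.72 ± 0.354 and 4.41 ± 0.654 in 3D.

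Among the genes with the most positive interactions that passed the level and replicate criteria, several had under 1 CPM in the 3D control line. NPPB, the natriuretic peptide BNP and a known SRF target of the heart, was at 8.48 ± 0.351 CPM in 2D control, 327 ± 13.7 in 2D WT, 0.0382 ± 0.0662 in 3D control and 20.5 ± 0.779 in 3D WT, with WT effects of 5.27 ± 0.07 and 8.90 ± 0.89 and an interaction of 3.63 ± 0.89, adjusted p = 3.36e-05. CCDC190, a coiled-coil gene, was at 4.71 ± 0.865 CPM in 2D control, 66.2 ± 3.91 in 2D WT, 0.372 ± 0.16 in 3D control and 73.8 ± 2.76 in 3D WT (3.76 ± 0.31, adjusted p = 9.8e-09), and KISS1, the metastasis suppressor kisspeptin, at 9.25 ± 1.08 CPM in 2D control, 22.9 ± 1.11 in 2D WT, 0.178 ± 0.0668 in 3D control and 4.03 ± 0.617 in 3D WT. The interaction of KISS1 was 3.12 ± 0.35, adjusted p = 3.53e-07. For 3 genes 3D control held no counts, so only levels are given: MGAM, a glucosidase, was at 0.376 CPM in 2D control, 30.9 in 2D WT and 22.7 in 3D WT, FLT1, a VEGF receptor, at 0.447, 1.31 and 0.435, and TRAC, the T cell receptor constant region, at 0.138, 1.79 and 2.08. PCDHGA12, a clustered protocadherin, had no counts in 2D WT, with 0.418 CPM in 2D control, 1.01 in 3D control and 0.503 in 3D WT. On log2(TPM + 1) FLT1 turned to -0.00 and PCDHGA12 to -0.11, and neither was called on log2(TPM + 0.1). The rest of the 15, beside ID1, ATOH8 and GBP4, were CST2 (3.64), NPY4R (3.56), EZRP1 (3.37), SOST (3.06) and CALCR (2.91). The means of these genes were low in every group except that of SOST in 2D control. CST2 averaged 0.276 ± 0.134 and 0.0603 ± 0.0592 in 2D and 0.395 ± 0.27 and 1.17 ± 0.222 in 3D. NPY4R averaged 1.05 ± 0.177 and 0.0628 ± 0.109 in 2D and 0.674 ± 0.325 and 0.522 ± 0.0668 in 3D. EZRP1 averaged 0.246 ± 0.0787 and 1.02 ± 0.282 in 2D and 0.0356 ± 0.0311 and 1.77 ± 0.173 in 3D. CST2 and EZRP1 were highest in 3D WT. CALCR averaged 1.07 ± 0.501 and 0.639 ± 0.114 in 2D and 0.279 ± 0.195 and 1.33 ± 0.527 in 3D. SOST, the Wnt inhibitor sclerostin, fell from 9.14 CPM in 2D control to 0.902 in 2D WT and was at 0.226 and 0.189 in 3D control and WT. NPPB, KISS1, MGAM, PCDHGA12, EZRP1 and SOST were not called in the fit of all 24 libraries, MGAM and CALCR not on the TPM values, and SOST not without 3D WT replicate 2.

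The most negative interactions included genes highest in 2D WT. ADM2, an adrenomedullin peptide, was at 3.48 ± 0.683 CPM in 2D control, 11.3 ± 0.241 in 2D WT, 2.12 ± 0.0535 in 3D control and 1.14 ± 0.142 in 3D WT (-2.60 ± 0.24, adjusted p = 3.67e-07), and the stress cytokine GDF15 at 2.34 ± 0.0925 CPM in 2D control, 5.97 ± 1.13 in 2D WT, 2.37 ± 0.611 in 3D control and 1.21 ± 0.0808 in 3D WT (-2.31 ± 0.31, adjusted p = 2.54e-05, not called in the fit of all 24 libraries). PCLO, a synaptic scaffold, was at 1 ± 0.239 CPM in 2D control, 4.7 ± 0.117 in 2D WT, 5.78 ± 0.288 in 3D control and 5.59 ± 0.221 in 3D WT (-2.26 ± 0.23, adjusted p = 8.6e-07): gel raised the control line, and WT was not called against control in 3D (-0.05 ± 0.14, adjusted p = 0.803). MAP1A, a microtubule protein, was raised on gel in control to 3.64 CPM and stood at 1.04 in 3D WT (-2.57 ± 0.54, adjusted p = 0.00156). The others beside DDIT3, FOSB, DUSP2, GPNMB and KCNMB1 were DPY19L2P1 (-4.65), CGB8 (-3.95), SPNS2 (-3.90), DUSP13 (-2.89), RNF223 (-2.87) and EDNRA (-2.27), all low genes. EDNRA, the endothelin receptor, turned to 0.15 on log2(TPM + 1) and was not called on log2(TPM + 0.1). SPNS2 averaged 0.108 ± 0.0907 and 0.823 ± 0.266 in 2D and 1.33 ± 0.223 and 0.633 ± 0.483 in 3D. EDNRA averaged 0.0968 ± 0.0803 and 1.84 ± 0.289 in 2D and 0.974 ± 0.15 and 3.86 ± 0.529 in 3D. CGB8 averaged 0.032 ± 0.0554 and 0.16 ± 0.18 in 2D and 5.63 ± 1.4 and 1.48 ± 0.466 in 3D. CGB8 and SPNS2 were highest in 3D control. DPY19L2P1 averaged 0.0598 ± 0.0634 and 1.39 ± 0.335 in 2D and 0.147 ± 0.122 and 0.133 ± 0.0764 in 3D. DUSP13 averaged 0.262 ± 0.106 and 1.66 ± 0.268 in 2D and 0.54 ± 0.121 and 0.439 ± 0.0401 in 3D. RNF223 averaged 0.085 ± 0.0978 and 1.2 ± 0.142 in 2D and 0.216 ± 0.0389 and 0.377 ± 0.0454 in 3D. CGB8, CST2, PCDHGA12, DPY19L2P1 and EZRP1 belong to near-identical families or are pseudogenes, so their counts are uncertain. DESeq2 did not call KCNMB1 and gave no adjusted p for CST2, NPY4R, FLT1, PCDHGA12, DPY19L2P1 and RNF223. SPNS2 and CGB8 were not called on log2(TPM + 0.1), SPNS2 also not on log2(TPM + 1), and CGB8 not without 2D Control replicate 2 or 3, without 2D WT replicate 1 or in the fit of all 24 libraries.

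**Figure D5:**
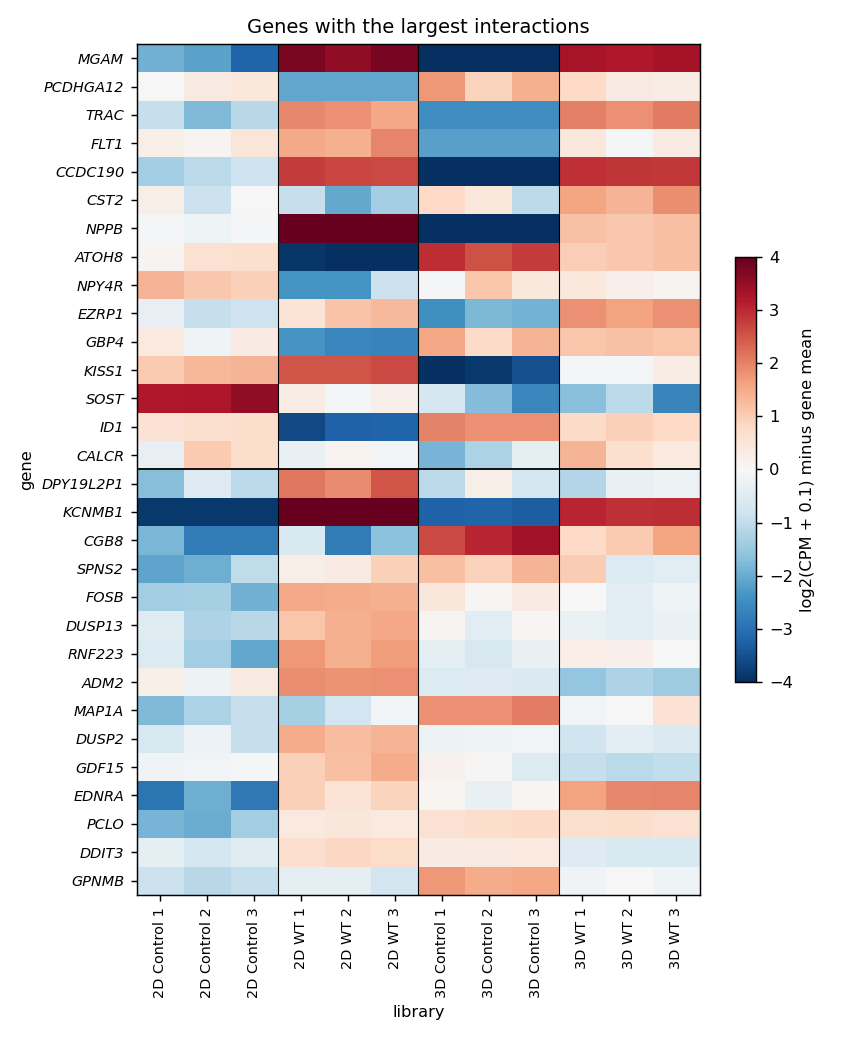
Log2(CPM + 0.1) less the mean of each gene for the 15 most positive (top) and 15 most negative (bottom) interactions, in the 12 libraries, blue low and red high, with the colour capped at 4 in either direction. The row of NPPB is lowest in 3D Control, and FOSB, ADM2 and DUSP2 are highest in the 3 libraries of 2D WT.

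Genes whose WT effect was called in both cultures with opposite signs numbered 374 (2.65% of those tested), and 360 of them also passed the level and replicate criteria: 174 fell with WT in 2D and rose in 3D, and 186 did the reverse. Those with the lowest interaction p in the first direction were IFIT3, ADAMTS15, PLAT, IFIT2 and THBD. ADAMTS15, a matrix protease, was at 93.5 ± 4.18 CPM in 2D control, 46.4 ± 2.36 in 2D WT, 48.9 ± 2.94 in 3D control and 72.8 ± 2.98 in 3D WT (1.59 ± 0.08, adjusted p = 3.43e-10), and the control line fell on gel while the WT line rose. THBD, the anticoagulant thrombomodulin, was at 59 ± 2.9 CPM in 2D control, 36.4 ± 2.19 in 2D WT, 31.6 ± 1.8 in 3D control and 45.2 ± 0.406 in 3D WT. The interaction of THBD was 1.21 ± 0.08, adjusted p = 9.61e-09. In the second direction they were INSIG1, SLC38A1, MGST1, PPP1R15A and DDIT3. SLC38A1, a glutamine transporter, was at 249 ± 2.19 CPM in 2D control, 379 ± 7.53 in 2D WT, 282 ± 0.691 in 3D control and 237 ± 3.45 in 3D WT (-0.86 ± 0.04, adjusted p = 5.8e-10), and MGST1, a membrane glutathione transferase, at 57.3 ± 2.33 CPM in 2D control, 83.9 ± 1.21 in 2D WT, 109.8 ± 1.89 in 3D control and 74.9 ± 2.36 in 3D WT. The interaction of MGST1 was -1.10 ± 0.06, adjusted p = 6.96e-10. The count was 281 with DESeq2, 176 on log2(TPM + 1), 171 on log2(TPM + 0.1) and 139 in the fit of all 24 libraries.

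The culture response of the WT line was set against that of another line in a separate fit of 12 libraries. That line overexpresses the mutant that the titles call dSAP. MRTFA averaged 9118 CPM in 2D dSAP and 10490 in 3D dSAP, scaled over all 24 libraries. In WT it averaged 4674 in 2D and 4425 in 3D, scaled over the 12 main libraries. Its response to gel also differed between the lines in edgeR's test (-0.26 ± 0.06, adjusted p = 0.0032). The part of construct level in this comparison was not tested. This comparison uses the same 6 WT libraries as the interaction, so its values are given beside those above and are not a second measurement of them. Of 14091 genes tested, 2196 (15.6%) responded differently to gel, 1273 (9.03%) more positively in the WT line and 923 (6.55%) more negatively. The fit of all 24 libraries gave 207, and 1791 when 3D dSRF replicate 1 was left out of it. Of 30 mitosis genes 28 were more positive and none more negative (median 0.40), with KIF20A at 0.67 ± 0.08 and PLK1 at 0.59 ± 0.07. Of 12 histones 11 were more positive (median 0.52) and of 32 replication genes 12 (median 0.19). The ATF4 targets were more negative for 22 of 39 (median -0.32), with DDIT3 at -0.78 ± 0.13 and ATF4 at -0.48 ± 0.05, and the chaperones for 9 of 25, with HSPA5 at -0.58 ± 0.12.

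Against dSAP the cytoskeletal targets were more positive for 17 of 45 and more negative for 1 (median 0.13), with ZYX at 0.19 ± 0.05, and the YAP and TEAD targets for 9 and 1 of 22, though CCN1 was at -0.01 ± 0.06 (adjusted p = 0.915). ACTA2, at 0.09 ± 0.14 (adjusted p = 0.746), TNC, at -0.01 ± 0.07 (adjusted p = 0.969), and FOSB, at -0.43 ± 0.23 (adjusted p = 0.219), were not called in this comparison. FTL (-0.70 ± 0.05), CAV1 (0.62 ± 0.05), ID1 (0.97 ± 0.17) and IFIT3 (0.61 ± 0.08) were. The cholesterol genes were more positive for 2 of 32 and more negative for 5 (median 0.02), and the interferon genes for 6 and 5 of 42 (median -0.03).

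Markers of other cell types were low. Of 7 leukocyte markers 5 stayed under 1 CPM in all libraries. The list summed to 42.1 to 58.7 CPM, nearly all from CD68 and CD14. Of these 2, CD14 was more positive in the interaction (1.82) and CD68 more negative. CD14 had 12.7 CPM in 2D control, 6.71 in 2D WT, 5.41 in 3D control and 10.2 in 3D WT. CD68 ran from 34.4 to 52.5 CPM over the 12 libraries. Its call was lost with DESeq2 and in the fit of all 24 libraries. Of 7 muscle markers 5 stayed under 1 CPM with MYOG at 0, and the sum was higher with WT, from 2.08 to 2.97 CPM in 2D control and 3.19 to 4.24 in 3D control to 8.76 to 11.5 in 2D WT and 22.2 to 24.8 in 3D WT through SYNPO2 (interaction 2.04 ± 0.31, adjusted p = 0.000154), an actin-binding protein. Of the 2 muscle markers tested, WT raised 1 and lowered 1 in 3D. Endothelial markers summed to at most 4.14 CPM. Adipocyte and neural markers summed to at most 10.8 CPM, with FABP4 at 0. SYT1, a synaptic protein, had -1.98 ± 0.32, adjusted p = 0.000202 and GFAP 0.80 ± 0.27, adjusted p = 0.0388, the latter lost when some single libraries were left out and on the TPM values. The part of these cell types in the results above was not tested. SYNPO2 averaged 1.64 ± 0.577 and 9.37 ± 1.49 in 2D and 0.938 ± 0.256 and 21.6 ± 1.2 in 3D. SYT1 averaged 1.22 ± 0.205 and 6.97 ± 0.385 in 2D and 0.69 ± 0.146 and 0.995 ± 0.0525 in 3D. GFAP averaged 4.9 ± 0.686 and 3.05 ± 0.642 in 2D and 2.53 ± 0.332 and 2.75 ± 0.241 in 3D.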

How the data were processed

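RNA was measured in 24 libraries of MDA-MB-231 lines; 12 (2D and 3D, control and WT MRTF-A) carry the results, and 12 (WT and dSAP) a side comparison. The authors deposited estimated counts per gene and TPM values (already scaled for length and depth), made with Salmon 11.3 on hg38 after FastQC, per the submitters' processing notes. No source used here names the gene models. The labels name polyA RNA as the molecule and also total RNA with ribosomal depletion, and this was not resolved. Groups came from titles, because the genotype field disagrees with them for 16 of 24 libraries.

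The deposited expected counts were rounded to whole numbers, filtered with filterByExpr, scaled by TMM and fitted with edgeR 4.0.16 (R 4.3.3), quasi-likelihood, robust, 1 mean per group, with Benjamini-Hochberg adjustment over all 14112 genes and a threshold of 0.05. Levels are TMM-scaled CPM. SE come from the fitted model. Total counts of 15536654 to 21931024 set the precision, and the interaction was tested on simulated data: 86 of 100 genes changed 2-fold and 95 of 100 changed 4-fold were recovered, with 9 false among 190 calls. The changed genes were drawn without those of the lowest mean level, and all other genes had no interaction. Counts were drawn with the fitted dispersion alone. These rates therefore do not cover the lowest genes, and far fewer genes changed than were called in the data. Of 37247 gene IDs 34436 matched a symbol. Tables were handled with pandas 2.3.3 in Python 3.11.15.

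Genes were named by rule: a fixed set of SRF, stress and interferon genes, the 15 most positive and 15 most negative interactions with a group mean of at least 1 CPM and replicate ranges that did not overlap, the 5 of lowest p in each direction among opposite-sign genes, and up to 4 per list. The members and lists were chosen with earlier results of these data known. Alternatives were DESeq2 1.42.0, its size factors, no filter, limma 3.58.1 on log2(TPM + 1) and log2(TPM + 0.1), replicate as a block, all 24 libraries, all but 3D dSRF 1, and leaving out each library. Some members that the rule for named genes selects are not reported here; they stay in the counts and medians of their lists.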

Additional observations from a re-analysis of the deposited data

Results flagged for a closer look

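The effect of WT on 374 genes was called in both cultures with opposite signs, with the interaction as the test of the difference. Of these, 5 in each direction were taken by the lowest interaction p. WT lowered IFIT3 (interaction 1.39), ADAMTS15 (1.59), PLAT (2.31), IFIT2 (1.79) and THBD (1.21) in 2D and raised them in 3D. WT raised INSIG1 (-1.69), SLC38A1 (-0.86), MGST1 (-1.10), PPP1R15A (-1.34) and DDIT3 (-2.22) in 2D and lowered them in 3D. Groups held 3 libraries, too few to test single libraries as outliers.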

How the results depend on the processing

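The count of 3463 interaction genes fell to 1376 (633 more positive, 743 more negative) in the fit of all 24 libraries, 1989 (1185 and 804) on log2(TPM + 0.1) and 2069 (1200 and 869) on log2(TPM + 1). It was 2995 with DESeq2, 3424 with its size factors and 3636 without 3D dSRF replicate 1. Without the filter it was 3439, of which 66.3% were more positive against 50.5%. Leaving out any single control library, of either culture, gave a share of 56.6% to 60.6%. Leaving out any single WT library gave 47.7% to 51.2%. The cause of these shifts was not tested. The WT against dSAP count of 2196 fell to 207, 762 and 786 under the first 3 of these. Opposite-sign genes fell from 374 to 139 with all 24 libraries and to 171 and 176 on the TPM scales with 0.1 and 1 added. On log2(TPM + 1) the higher share moved to 36.5% and 39.0% for WT in 2D and 3D, and to 61.9% and 63.3% for gel in the control and WT lines; with 0.1 added these were 36.2%, 39.6%, 61.4% and 63.5%. Leaving out 1 library gave 2920 to 3574 interaction genes, 6985 to 7894 for WT in 2D, 6416 to 7164 in 3D, 8030 to 8687 for gel in the control line, 8345 to 9167 in the WT line and 1625 to 2479 for WT against dSAP.

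Among 2854 values of named genes, 2654 kept direction and call, 189 lost the call, 6 gained it and 5 reversed: MRTFB (-0.19 on both TPM scales), EDNRA (0.15), FLT1 (-0.00) and PCDHGA12 (-0.11) on log2(TPM + 1). The fit of all 24 libraries accounts for 64 of the lost calls. Same-numbered libraries did not deviate together: over 18 pairs r ran from -0.08 to 0.102, with 1 over 0.1. With replicate as a block the counts were 3330, 7626, 7033, 8627, 8960 and 1998, and the cytoskeletal, ATF4 and mitosis counts differed from the main ones by at most 1. Counting error limits the genes listed with group means under 1 CPM.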
